A study of Mus musculus with 18 samples.

Results

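The genes described here are 41 members of 2 linked stress programmes of the cell, 24 genes of the ATF4 response and 17 genes of the endoplasmic reticulum (ER) chaperone response, chosen by name and matched by mouse Entrez gene identifier to the 36528 genes listed for each library. All 41 were found, and all 41 were among the 16875 genes that passed the filter on low counts. They were followed in polyadenylated RNA of mouse embryonic stem cells at day 4, in 6 groups of 3 libraries. The wild type group has intact BAP1, the deubiquitinase that removes ubiquitin from histone H2A. A conditional BAP1 knockout line was measured without 4-hydroxytamoxifen (the untreated knockout line) and with it (the BAP1 knockout), and a line with the catalytically inactive C91A form of BAP1 was measured without the drug (the untreated C91A line) and with it (the C91A mutant). The last group is a double knockout of BAP1 and RNF2, the ligase that places ubiquitin on H2A, with the drug. The drug, given at 100 nM for 4 days, induces recombination by Cre, so each allele effect includes those of drug and Cre. All groups, controls included, also received emricasan, an inhibitor of caspases, which the design gives as a guard against the death that follows loss of BAP1. Whether the wild type cells received the drug, how many clones each line stands for, and whether replicates were separate cultures are not given in the sources used here, so the p-values measure only the spread between these libraries. In bulk RNA, fewer cells that carry a transcript and less of it per cell cannot be told apart.

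ATF4 is a transcription factor whose translation rises when kinases phosphorylate the initiation factor eIF2 alpha, under amino acid shortage, ER stress, viral RNA or lack of haem. It switches on genes that make and import amino acids, charge transfer RNAs and feed one-carbon metabolism, together with further regulators such as Ddit3 (the protein CHOP), which in prolonged stress promotes death. ER chaperones fold secreted and membrane proteins, and their genes are driven by ATF6 and XBP1 when unfolded protein builds up in the ER. ATF4 itself is controlled largely in translation, and XBP1 by splicing, and counts over a whole gene read neither.

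The promoters of the arms hold different sequence elements. RefSeq windows (GRCm38.p6) from 250 bases before to 50 bases after an annotated start were at hand for 22 ATF4 arm genes and 15 chaperone genes, and were searched on both strands. The C/EBP-ATF response element, the composite site bound by ATF4 with C/EBP partners (letters TGATGNAAN), was found in 8 of 22 ATF4 arm genes (36.4%), 1 of 15 chaperone genes (6.67%) and 4.50% of 27025 genes overall. The ER stress response element, bound by ATF6 with NF-Y (the letters CCAAT, then 9 bases of any kind, then CCACG), was found in 7 of 15 chaperone genes (46.7%), none of the 22 ATF4 arm genes and 0.137% of all genes. A shorter second form (ATTGG, 1 base of any kind, then CCACG) was found in 2 chaperone genes and 0.0444% of all genes, and the XBP1-type letters TGACGTGG were found in no member and in 0.714% of all genes. A match is a description of the letters, and no match says only that they are absent from this window. The stretches below, from genes whose changes are described further on, run 5′ to 3′ on the strand of the gene, with the matched letters in capitals (for matches on the other strand the capitals read as the reverse complement).
Asns (chr6:7693212-7693244, - strand): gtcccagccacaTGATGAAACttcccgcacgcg
Atf3 (chr1:191183424-191183456, - strand): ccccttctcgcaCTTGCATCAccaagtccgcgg
Nupr1 (chr7:126625561-126625593, - strand): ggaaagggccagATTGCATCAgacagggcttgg
Vldlr (chr19:27216807-27216839, + strand): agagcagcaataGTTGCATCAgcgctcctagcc
Chac1 (chr2:119351036-119351068, + strand): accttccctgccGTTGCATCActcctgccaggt
Pycr1 (chr11:120643831-120643863, - strand): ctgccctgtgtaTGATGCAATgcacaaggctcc
Hspa5 (chr2:34772013-34772055, + strand): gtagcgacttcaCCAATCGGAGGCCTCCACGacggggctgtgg
Calr (chr8:84847063-84847105, - strand): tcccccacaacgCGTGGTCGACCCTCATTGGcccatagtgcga
Canx (chr11:50325788-50325830, - strand): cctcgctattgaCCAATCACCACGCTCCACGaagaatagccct
Creld2 (chr15:88819508-88819550, + strand): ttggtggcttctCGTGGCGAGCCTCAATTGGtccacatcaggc
Herpud1 (chr8:94386304-94386336, + strand): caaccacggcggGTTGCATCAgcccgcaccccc
Herpud1 (chr8:94386365-94386399, + strand): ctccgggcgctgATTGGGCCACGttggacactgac
The first 6 lines carry the C/EBP-ATF element and the next 4 the ER stress element. Herpud1, which encodes an ER membrane protein of the degradation pathway, holds the C/EBP-ATF element 113 to 105 bases before its start and the second ER stress form 52 to 42 bases before it. Among the other lines the element lay nearest the start in Asns (23 to 15 bases before it) and farthest in Vldlr (201 to 193 bases before it).

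Libraries held 8106613 to 23039407 counts, and the shallowest was a knockout library. The TMM factors that set the scale between libraries were 0.922 to 0.934 in the knockout and 1.063 to 1.076 in the double knockout, so scaling by totals alone shifts comparisons of these groups. Summed CPM (the count per gene relative to the TMM-scaled library total) of 10 embryonic stem cell markers was lowest in the C91A mutant (3020 to 3100) and highest in the untreated knockout line (4700 to 4810), with all 10 detected in each group. It was 3720 to 3880 in the knockout and 4000 to 4390 in the untreated C91A line, and so was lower with each allele than in its untreated line. Wild type stood at 3990 to 4210 and the double knockout at 4520 to 4750. The sum of 10 fibroblast markers, all detected except Lum in the double knockout, was 31.4 to 34.6 in both untreated lines, 55.6 to 58.7 in wild type, 57.5 to 63.2 in the knockout, 78.2 to 80.7 in the C91A mutant and 95.5 to 97.6 in the double knockout. Endoderm markers summed to 11.3 to 40.4 CPM in the other groups and to 64.4 to 70.7 in the double knockout, with Ttr at 0 in every group and Afp in wild type. The part of these differences in the results below was not tested. Bap1 stood at 170.0, 167 and 169 CPM in the untreated knockout line and 151, 147 and 152 after knockout, and at 93.8, 84.8 and 88.03 in the untreated C91A line and 163, 166 and 166 in the mutant. The untreated C91A line thus stood below wild type (171, 183 and 182), for which the labels give no reason, and every C91A effect below is taken against this line. Rnf2 was lower in the double knockout than in wild type (log2 fold change -0.63). Counts over a whole gene can include transcripts without the deleted exons and so check the genotypes only in part.

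**Figure D1:**
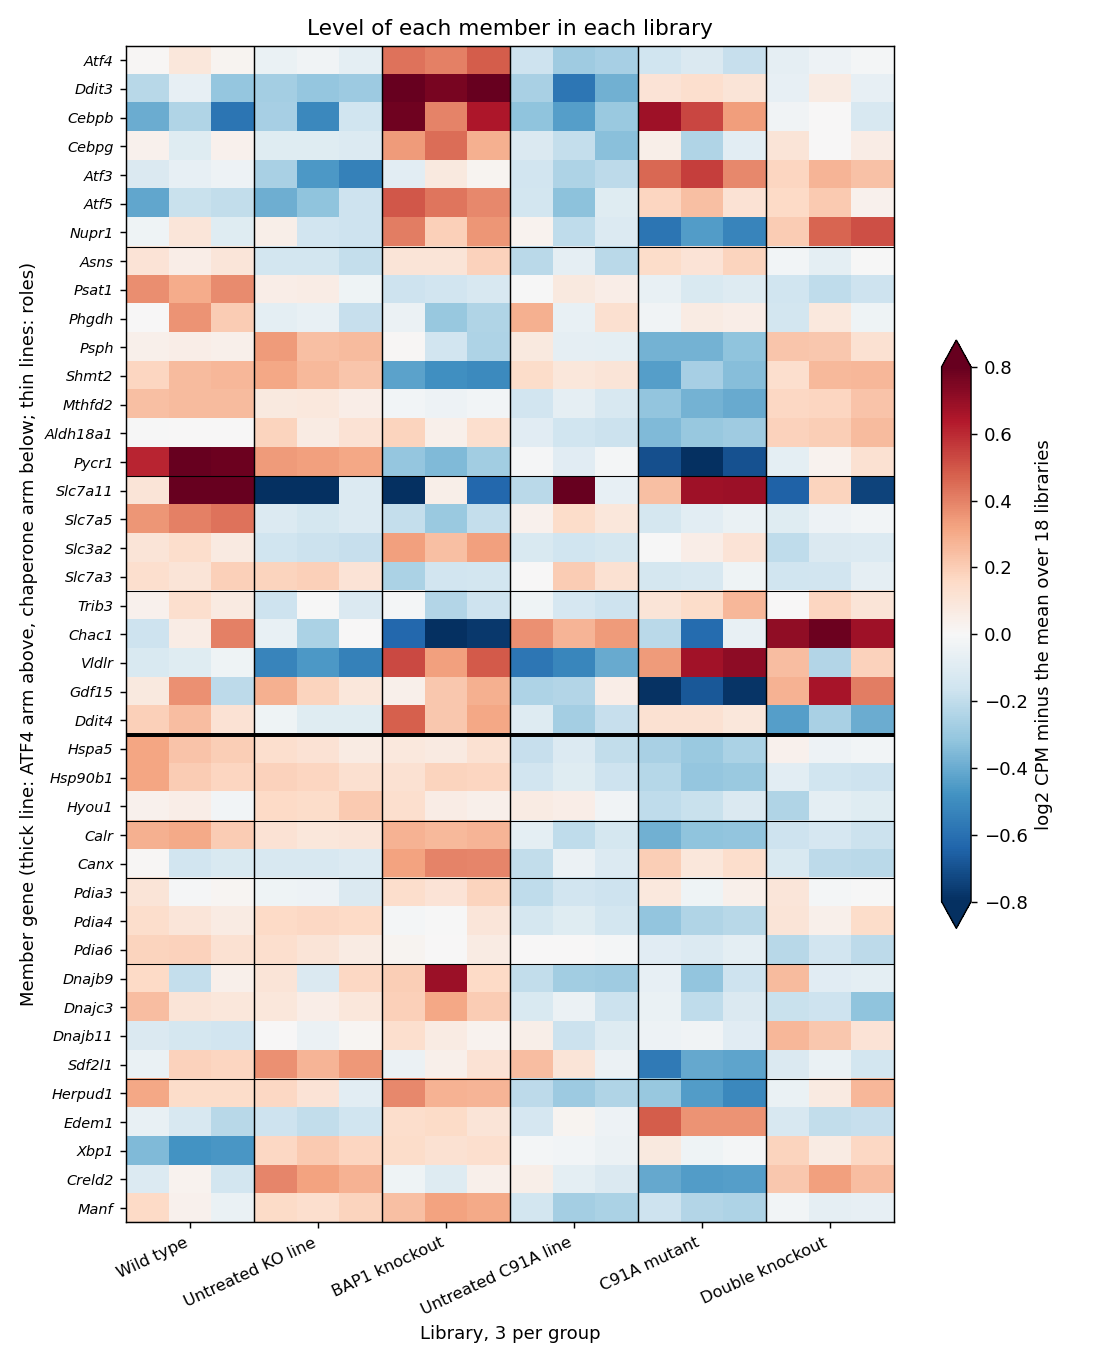
Level of each of the 41 members (rows, grouped by role) in each of the 18 libraries (columns, 3 per group), as log2 CPM minus the mean over all libraries, with colours saturating at 0.8 in either direction. The knockout columns are red for the transcription factors Atf4, Ddit3, Cebpb and Atf5 and blue for Shmt2, Pycr1 and Chac1.

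Levels of different genes were compared on the authors' length-normalised scale, nRPKM (RPKM adjusted by a size factor for each library). In wild type the chaperones Calr, Hsp90b1 and Hspa5 stood highest at 814 (SD 29.5), 566 (SD 28.1) and 477 (SD 19.9) nRPKM. Atf4 led its arm at 309 (SD 9.43), followed by Asns at 219, Slc3a2 at 192 and Slc7a5 at 188 nRPKM. The last 2 encode the heavy and light chains of the same leucine transporter and differed in wild type by less than the SD between libraries, which was 4.47 and 5.64 nRPKM. At the low end stood Slc7a11, the cystine transporter, at 0.21 nRPKM, with 20 to 64 raw counts in the wild type libraries and as few as 6 in a knockout library. The SE of its log2 fold change after knockout was 0.47. Vldlr was the next lowest, at 0.939 nRPKM in wild type.

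After BAP1 knockout the ATF4 arm split by role: its 7 transcriptional regulators rose, while most of its enzymes of amino acid and one-carbon synthesis fell. In the edgeR quasi-likelihood test (Benjamini-Hochberg adjusted p under 0.05 over all genes), 11 of 24 ATF4 arm genes rose and 8 fell against the untreated knockout line. Across all genes tested 61.6% were called in this comparison (31.3% higher, 30.3% lower), beside 79.2% of the arm. The median log2 fold change of the arm was 0.083, beside -0.0061 over all genes. Scaling by library totals alone lowered the median of all genes by 0.154 in this comparison, and all 7 regulators were called higher with that scaling too. The roles were assigned with the values known and carry no test as groups.

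Ddit3, the pro-death regulator CHOP, gave the largest rise of the arm. It stood at 156, 152 and 154 CPM in the untreated knockout line and 328, 319.9 and 338 after knockout, or 1.09 (SE 0.06, adjusted p = 3.2e-20) on the log2 scale. All 3 knockout libraries lay above all other libraries of the series. In RefSeq the gene shares 77 bases at its start with Mbd6 (chr10:127290793-127290869) and 71 bases at its end with Mars1, and the library kit named in the labels (TruSeq RNA) is not described there as marking strand. Mbd6, which encodes a BAP1 complex subunit, went from 165, 172 and 177 to 418, 394 and 382 CPM (log2 fold change 1.22), while Mars1 was not called (-0.034, adjusted p = 0.5). How much of the Ddit3 count comes from the shared bases was not tested.

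Atf4 rose as well, and so did genes of its partners. Its level was 520.5, 530.2 and 511 CPM in the untreated line and 731, 715 and 757 after knockout (log2 fold change 0.50, SE 0.04, adjusted p = 3.5e-14), above every other library. Cebpb, a C/EBP factor that dimerises with ATF4, went from 22.5, 18.9 and 24.1 to 46.2, 35.5 and 42.2 CPM (log2 fold change 0.94, SE 0.09, adjusted p = 1.8e-11), with no overlap. Atf5, a relative under the same translational control, went from 32.8, 34.3 and 38.2 to 60.6, 57.7 and 56.02 CPM (log2 fold change 0.73, SE 0.07, adjusted p = 2e-11). Atf5 shares exons with Nup62 in the annotation, which went from 376, 383 and 386 to 486, 449 and 469.6 CPM. Smaller rises were those of Cebpg (log2 fold change 0.45), Atf3 (0.41) and Nupr1 (0.42), the last a small chromatin-associated stress factor. The Atf3 libraries ran from 8.7 to 10.6 CPM before and 11.97 to 13.3 after, overlapping wild type (11.7, 12.1 and 12.3). Cebpb shares 312 bases with Tmem189 in the annotation, a gene that was not called after knockout (log2 fold change 0.062).

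**Figure D2:**
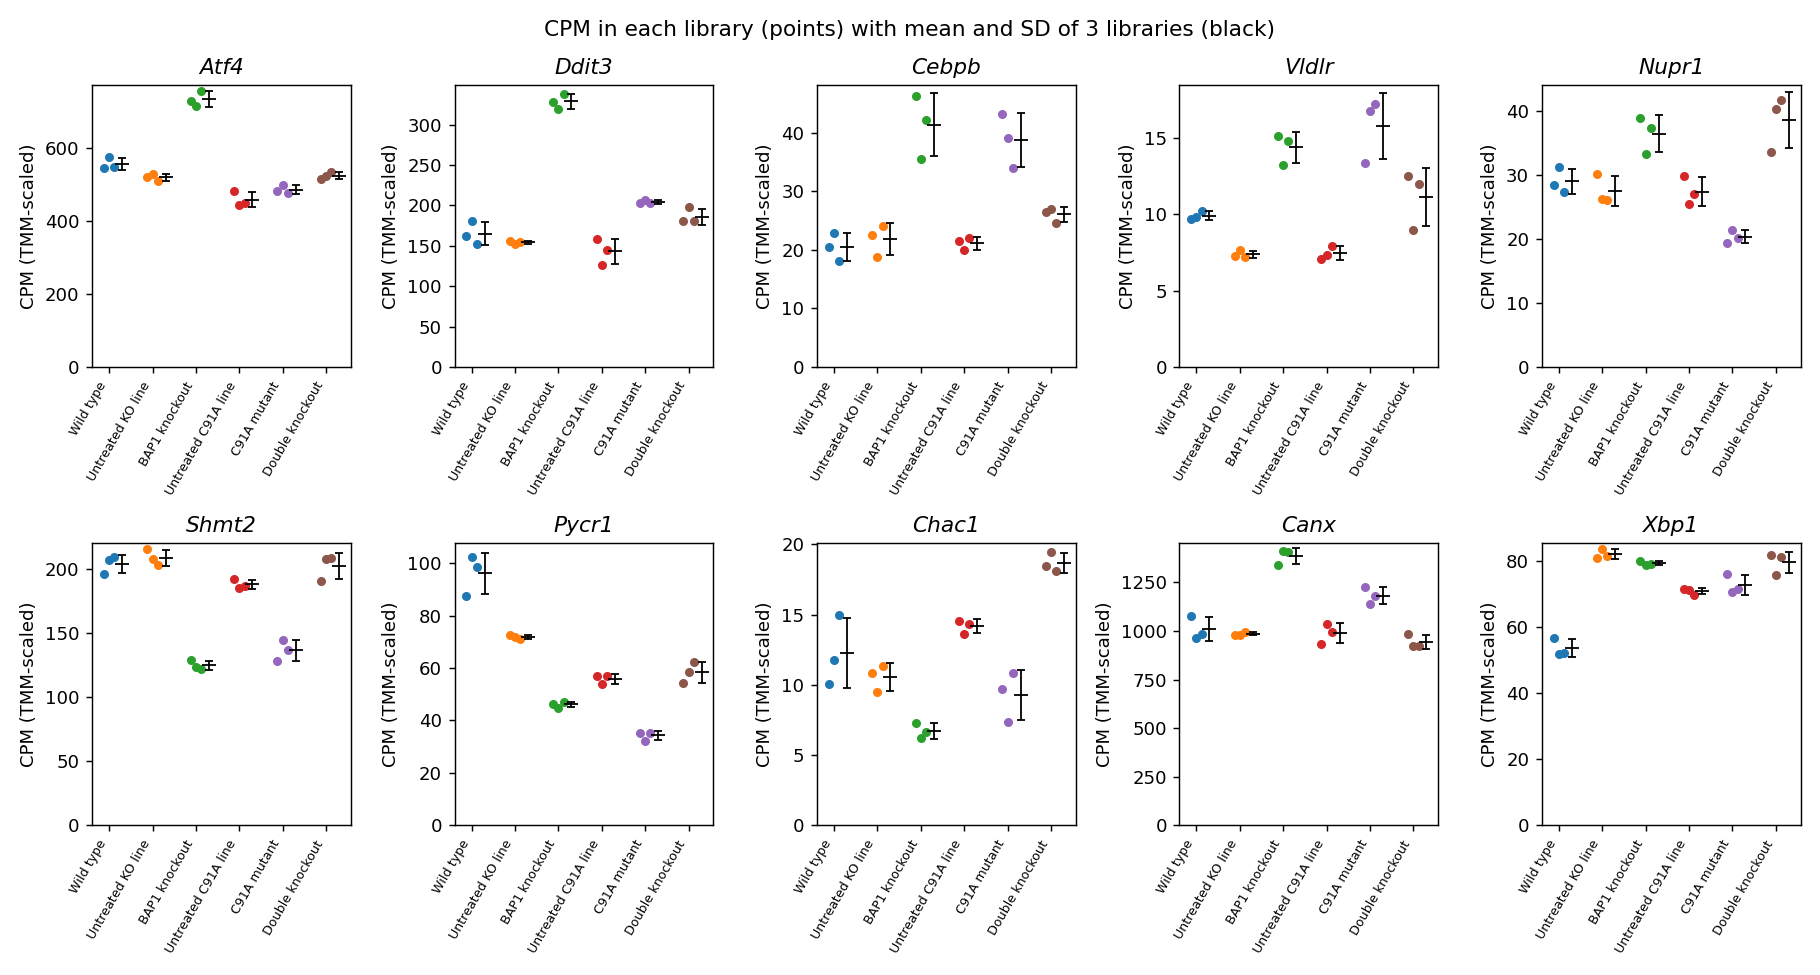
CPM of 10 members in each library (coloured points, 3 per group) with the mean and SD of the group in black, on axes that start at 0. Ddit3 separates the knockout from all other groups, Cebpb and Vldlr are high with both BAP1 alleles, and Shmt2 is low with both.

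Enzymes of the arm went mostly the other way after knockout, with 5 of 8 lower and 1 higher, beside 30.3% of all genes lower and 31.3% higher. This role, too, was assigned with the values known and carries no test as a group. Shmt2, which makes glycine and one-carbon units from serine in mitochondria, stood at 216, 208 and 203 CPM before and 129, 124 and 122 after (log2 fold change -0.74, SE 0.05, adjusted p = 8.7e-17). Pycr1, the last enzyme of proline synthesis, went from 72.7, 71.9 and 71.1 to 46.2, 44.9 and 47.2 CPM (log2 fold change -0.64, SE 0.06, adjusted p = 1.9e-11). For both genes the groups lay well apart. Psph, the last step of serine synthesis, fell by less (log2 fold change -0.41), and Psat1 (-0.17) and Mthfd2 (-0.10) only slightly. The Mthfd2 call was lost without any 1 of the 6 libraries compared (log2 fold change -0.091 to -0.11), with the authors' size factors and with no filter. Phgdh, the entry enzyme of the serine pathway (log2 fold change -0.086), and Aldh18a1, the first enzyme of proline synthesis (0.0039), were not called. The one rise was that of Asns, asparagine synthetase, from 446, 445 and 433 to 531, 530.2 and 560.0 CPM (log2 fold change 0.29, SE 0.04, adjusted p = 6.3e-08). The libraries at 531 and 530.2 lay within the range of wild type (533, 512 and 527), and the one at 560.0 lay above it.

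Among transporters and effectors the directions were mixed. Slc3a2, the heavy chain that carries several amino acid transporters to the membrane, rose by 0.47 on the log2 scale, while its partner Slc7a5 (-0.11) and the arginine transporter Slc7a3 (-0.35) fell. The Slc7a5 call was lost without knockout replicate 2 (log2 fold change -0.071) or replicate 1 (-0.099) or 3 (-0.10) of the untreated line. Chac1, an enzyme that degrades glutathione and a sensitive ATF4 target, fell from 10.9, 9.47 and 11.3 to 7.29, 6.21 and 6.62 CPM (log2 fold change -0.64, SE 0.14, adjusted p = 0.00014), with no overlap. Vldlr, a lipoprotein receptor induced by ATF4, rose from 7.3, 7.65 and 7.23 to 15.1, 13.2 and 14.8 CPM (log2 fold change 0.97, SE 0.12, adjusted p = 3.5e-09). Ddit4, an inhibitor of mTORC1, rose from 258, 247 and 248 to 369, 307 and 328 CPM (log2 fold change 0.42, SE 0.05, adjusted p = 4.8e-09), and its knockout libraries overlapped those of wild type (302, 314 and 287). Trib3, the pseudokinase that restrains ATF4 and CHOP, stood on the log2 scale at -0.04 (SE 0.06, adjusted p = 0.61) and the stress hormone Gdf15 at -0.0016 (SE 0.16, adjusted p = 0.99), neither past the test. Slc7a11 was not called (log2 fold change 0.16, SE 0.47, adjusted p = 0.79).

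The central ER chaperones showed no called change after knockout. Hspa5, the HSP70 of the ER (BiP) and the standard readout of ER stress, stood at 1202, 1186 and 1148 CPM in the untreated line and 1160, 1152 and 1190 after knockout (log2 fold change -0.014, SE 0.04, adjusted p = 0.77), in overlapping ranges. Hsp90b1, the HSP90 of the ER (log2 fold change -0.0033), and Hyou1, an ER relative of HSP70 (-0.095), were not called either, though Hyou1 was called lower with no filter (-0.12), with only the groups compared (-0.12) and without knockout replicate 1 (-0.12). Xbp1, the transcription factor of the arm, stood at 80.97, 83.8 and 81.5 before and 79.95, 78.8 and 79.2 after (log2 fold change -0.049, SE 0.05, adjusted p = 0.43). Of the 17 chaperone genes 7 were called higher and 3 lower, 58.8% beside the 61.6% of all genes, with a median log2 fold change of 0.085. That split turned to 2 higher and 8 lower when libraries were scaled by their totals alone, with which Hspa5, Hsp90b1, Hyou1 and Xbp1 were called lower.

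Both lectin chaperones, which hold glycoproteins while they fold, rose after knockout. Canx (calnexin) went from 982, 979 and 994 to 1339, 1410 and 1408 CPM (log2 fold change 0.49, SE 0.04, adjusted p = 2.6e-13), and its libraries after knockout were the highest of the series. Calr (calreticulin) rose by 0.17 (SE 0.04, adjusted p = 0.00011) on the log2 scale, a call that was lost with library totals alone (0.017). Its libraries went from 1485, 1461 and 1465 to 1663, 1644 and 1659 CPM, the latter within the range of wild type (1674, 1692 and 1576). Rises were also called for Edem1 (log2 fold change 0.30), which sends misfolded glycoproteins to degradation, Herpud1 (0.24), the disulfide isomerase Pdia3 (0.21), the eIF2 alpha kinase inhibitor Dnajc3 (0.15) and the secreted factor Manf (0.13). With library totals alone none of the calls of Herpud1 (log2 fold change 0.088), Pdia3 (0.052), Dnajc3 (-0.0024) and Manf (-0.020) held, and that of Herpud1 was also lost without replicate 3 of the untreated line (0.17). The calls of Dnajc3 and Manf were further lost with no filter, at equal depth and without some single libraries, knockout replicate 2 among them (log2 fold change 0.12 for each). Creld2, an ER-resident and secreted stress protein (log2 fold change -0.36), Sdf2l1, a partner of the ER DNAJ cochaperones (-0.28), and the isomerase Pdia4 (-0.13) fell, and the last call was lost without knockout replicate 1 (-0.11). The Creld2 libraries after knockout (77.5, 74.0 and 81.8 CPM) overlapped wild type (73.7, 81.0 and 71.9). Those of Sdf2l1 (31.7, 33.7 and 35.5 CPM) lay within the range of wild type (31.6, 37.2 and 36.9). Before knockout both genes lay above every wild type library (Creld2 at 104.2, 99.4 and 96.3 CPM, Sdf2l1 at 42.15, 39.6 and 41.6). The isomerase Pdia6 (log2 fold change -0.071) and the DNAJ cochaperones Dnajb9 (0.27) and Dnajb11 (0.085) were not called.

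The C91A mutant repeated part of this pattern. Against the untreated C91A line 9 of 24 ATF4 arm genes rose and 11 fell, beside 55.0% of all genes called (28.6% higher, 26.4% lower), and the median log2 fold change of the arm was 0.0018. Vldlr gave the largest rise, from 7.05, 7.31 and 7.94 to 13.3, 16.8 and 17.2 CPM (log2 fold change 1.09, SE 0.12, adjusted p = 1.2e-10), followed by Cebpb, from 21.6, 19.9 and 21.9 to 43.2, 39.1 and 34.02 CPM (log2 fold change 0.88, SE 0.09, adjusted p = 1.5e-10). Tmem189, which shares bases with Cebpb, went from 53.5, 51.9 and 55.0 to 64.6, 70.8 and 62.9 CPM, without overlap. How much of the Cebpb count comes from the shared bases was not tested. Atf3, an immediate stress factor, went from 11.4, 10.7 and 10.9 to 17.4, 18.6 and 16.5 CPM (log2 fold change 0.67, SE 0.10, adjusted p = 1e-07), and these 3 mutant libraries were the highest of the series for this gene. Ddit3 rose from 158, 126 and 145 to 204, 207 and 203 CPM (log2 fold change 0.52, SE 0.06, adjusted p = 2.4e-10), alongside Mbd6 (0.72). Atf4 itself stood at 483, 444 and 449.6 and 484, 499 and 476 CPM (log2 fold change 0.085, SE 0.04, adjusted p = 0.069), in overlapping ranges.

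Falls in the C91A mutant again included the synthesis enzymes, of which 6 of 8 were lower and 1 (Asns) higher, beside 26.4% of all genes lower and 28.6% higher. Pycr1 went from 57.03, 53.8 and 56.8 to 35.3, 32.3 and 35.3 CPM (log2 fold change -0.70, SE 0.07, adjusted p = 4.1e-12), the lowest libraries of the series. Shmt2 went from 192, 185 and 186 to 128, 145 and 137 CPM (log2 fold change -0.46, SE 0.05, adjusted p = 6.4e-11) and Chac1 from 14.6, 13.7 and 14.3 to 9.72, 7.37 and 10.8 CPM (log2 fold change -0.59, SE 0.12, adjusted p = 8.4e-05). Asns rose from 426, 469 and 425 to 546, 532 and 558 CPM (log2 fold change 0.31, SE 0.04, adjusted p = 2.3e-08). Gdf15 fell from 4.14, 4.17 and 5.08 to 2.84, 3.07 and 2.85 CPM (log2 fold change -0.60, SE 0.18, adjusted p = 0.0038) at 40 to 98 counts per library, and Nupr1 fell from 29.8, 25.4 and 27.02 to 19.4, 21.4 and 20.2 CPM (log2 fold change -0.42, SE 0.09, adjusted p = 9.5e-05), both to the lowest libraries of the series. Ddit4 went from 246, 219 and 233 to 288, 288 and 282 CPM (log2 fold change 0.30) and Atf5 from 38.8, 34.1 and 40.04 to 48.2, 50.7 and 46.5 (0.37), both higher in the mutant. Trib3 (log2 fold change 0.29) and Slc3a2 (0.19) rose too. Cebpg (log2 fold change 0.12), Phgdh (-0.081) and Slc7a11 (0.20) were not called.

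Of the chaperone arm 3 genes rose and 8 fell in the C91A mutant, 64.7% beside the 55.0% of all genes (28.6% higher, 26.4% lower). The median log2 fold change of the arm was -0.089, beside -0.0066 over all genes. Sdf2l1 fell most (log2 fold change -0.57), followed by Creld2 (-0.38). Small falls were called for Calr (log2 fold change -0.20), Hyou1 (-0.19), Hsp90b1 (-0.14), Pdia4 (-0.13), Hspa5 (-0.11) and Pdia6 (-0.089). The Hspa5 libraries stood at 966, 1015 and 954 before and 916, 893 and 919.9 after, and its call was lost without replicate 2 of the untreated line (log2 fold change -0.078) or of the mutant (-0.091). That of Pdia6 was lost with no filter and without any of 5 of the 6 libraries (log2 fold change -0.079 to -0.094), and that of Pdia4 without mutant replicate 1 (-0.10). Xbp1 stood at 71.7, 71.2 and 69.9 and 76.2, 70.7 and 71.5 CPM (log2 fold change 0.037, not called). Edem1 (log2 fold change 0.44), Canx (0.26) and Pdia3 (0.21) rose, as they did after knockout.

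**Figure D3:**
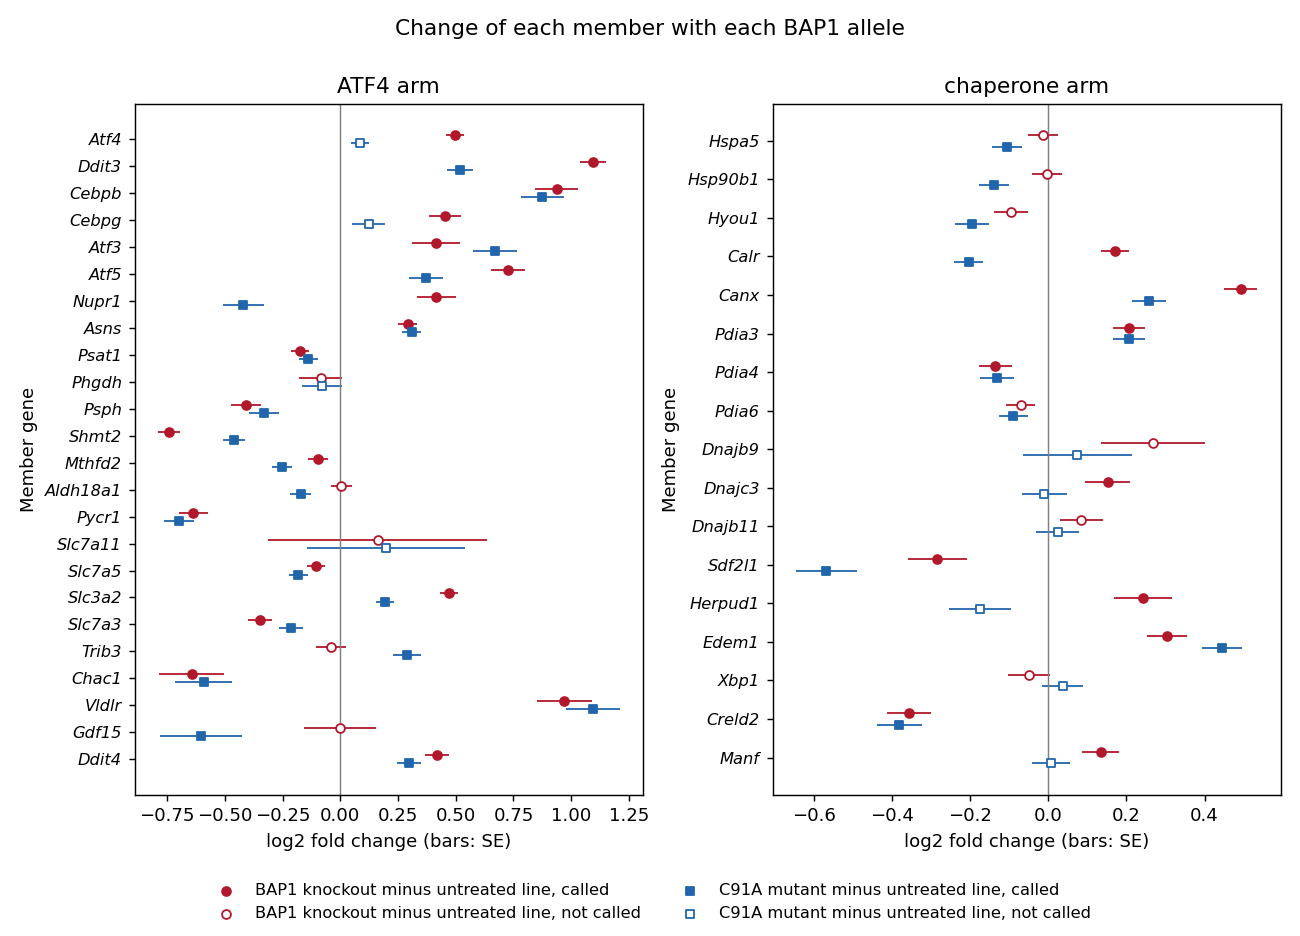
Log2 fold change with its SE of each member after BAP1 knockout (red circles) and in the C91A mutant (blue squares), each against its untreated line, filled where the adjusted p was under 0.05. Ddit3 and Shmt2 lie further from 0 after knockout, and Nupr1 and Calr lie on opposite sides of 0.

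The difference of the allele effects was tested as such, and 9 of 24 ATF4 arm genes and 3 of 17 chaperone genes passed, beside 25.9% of all genes, 12.2% more positive after knockout and 13.8% more negative. Regulators, a role assigned with the values known, made up 5 of the 9, beside 7 of the 24 genes of the arm. On the log2 scale, Nupr1 differed most (difference 0.84, SE 0.12, adjusted p = 1.3e-06), as it rose with one allele and fell with the other. The log2 difference was 0.57 (SE 0.08, adjusted p = 5.1e-07) for Ddit3 and 0.41 (SE 0.06, adjusted p = 4e-07) for Atf4. Atf5 (log2 difference 0.36) and Cebpg (0.33) also changed more positively after knockout, as did Slc3a2 (0.28) and Aldh18a1 (0.18). The Cebpg call was lost without mutant replicate 2 (log2 difference 0.26). That of Aldh18a1 was lost with library totals (log2 difference 0.12), no filter (0.16), equal depth (0.19) and without any of 7 single libraries (0.15 to 0.18). Shmt2 (log2 difference -0.28) and Trib3 (-0.33) changed more negatively. For Cebpb the log2 difference was 0.062 (SE 0.13, adjusted p = 0.78) and for Asns -0.017 (SE 0.06, adjusted p = 0.87), neither past the test. The 3 chaperone genes were Herpud1 (log2 difference 0.42), Calr (0.37) and Canx (0.23), all more positive after knockout. With the authors' size factors, or with only these 4 groups in the fit, 5 chaperone genes passed.

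In the double knockout 5 of the 7 regulators were lower than in the BAP1 knockout and none was higher (3 lower and 2 higher with library totals alone), while 5 were higher than in wild type. Against wild type 26.2% of all genes were called higher and 27.1% lower. Of the 8 synthesis enzymes 4 were higher than in the knockout and 1 lower (7 higher and 0 lower with library totals alone). The knockout libraries that enter here are those of the allele comparison above, so the values stand side by side and are no independent evidence. No untreated group of the double knockout line is among the groups. It is a different line from the BAP1 knockout, so loss of RNF2 and line cannot be told apart here. Against wild type, loss of BAP1, line, drug and Cre may enter as well. Against the BAP1 knockout 7 of 24 ATF4 arm genes were higher and 9 lower, beside 63.2% of all genes called, 32.6% higher and 30.6% lower. With library totals alone, which raise the median of all genes by 0.204, the split was 14 higher and 5 lower. Ddit3 stood at 180.5, 198 and 180.5 CPM in the double knockout, on the log2 scale -0.82 (SE 0.06, adjusted p = 2e-16) against the knockout, and was 0.17 (SE 0.06, adjusted p = 0.0089) against wild type (162, 180.5 and 153), a call lost without double knockout replicate 2 (0.13) or without wild type replicate 3 (0.12). Mbd6 was lower too against the knockout (log2 fold change -1.08). Atf4 stood at 515, 524 and 535 CPM, on the log2 scale -0.49 (SE 0.04, adjusted p = 6.9e-14) against the knockout and -0.085 (SE 0.04, adjusted p = 0.07) against wild type (545, 576 and 549), where it was not called. Cebpb stood at 26.5, 27.01 and 24.6 CPM, lower than in the knockout (log2 fold change -0.69) and higher than in wild type (0.34).

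Chac1, Ddit4, Pycr1, Nupr1 and Atf5 were among the ATF4 arm genes that lay outside the range of wild type in the double knockout. Chac1 stood at 18.5, 19.4 and 18.1 CPM, above every other library, on the log2 scale 1.47 (SE 0.14, adjusted p = 1.7e-12) against the knockout and 0.60 (SE 0.11, adjusted p = 1.6e-05) against wild type (10.1, 11.8 and 14.96). Ddit4 stood at 195, 222 and 201 CPM against 302, 314 and 287 in wild type (log2 fold change -0.55, SE 0.05, adjusted p = 6.3e-12), and was also below the knockout (-0.70). Shmt2 stood at 191, 208 and 209 CPM, on the log2 scale 0.70 (SE 0.05, adjusted p = 6.2e-16) against the knockout and -0.011 (SE 0.05, adjusted p = 0.86) against wild type (196, 207 and 209), with overlapping ranges in the latter. Pycr1 at 54.2, 58.4 and 62.4 CPM was above the knockout (log2 fold change 0.34) but below wild type (-0.72), whose libraries stood at 87.3, 102 and 98.6. Nupr1 stood at 33.6, 40.2 and 41.8 CPM, near the knockout (log2 fold change 0.076, SE 0.08, adjusted p = 0.43) and above wild type (0.42). Vldlr at 12.5, 8.96 and 11.97 CPM was lower than in the knockout (log2 fold change -0.37), a call lost without double knockout replicate 2 (-0.25), at equal depth (-0.23) and with library totals alone (-0.16). Atf5 stood at 47.9, 49.6 and 43.9 CPM, below the knockout (log2 fold change -0.31) and above wild type (0.39), the first call being lost with library totals alone (-0.10). Nup62, which shares exons with Atf5, stood at 319.6, 330.0 and 346.2 CPM, against 486.5, 449.2 and 469.6 in the knockout and 382.3, 403.7 and 383.5 in wild type. How much of the Atf5 count comes from the shared exons was not tested. Asns at 486, 467 and 492 CPM was below the knockout and wild type (log2 fold change -0.17 and -0.12). Neither Asns call held with library totals alone (log2 fold change 0.038 and -0.029), and that against wild type was also lost without double knockout replicate 2 (-0.10). Atf3 at 14.2, 15.3 and 14.9 CPM (log2 fold change 0.22) and Gdf15 at 5.95, 7.73 and 6.5 CPM (0.26) were not called against the knockout.

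Chaperone genes were mostly lower in the double knockout than in the knockout, 11 of 17 against 1 higher, but 5 and 5 with library totals alone. Of all genes 63.2% were called there (32.6% higher, 30.6% lower), beside 70.6% of the arm. The median log2 fold change was -0.21 for the arm, beside 0.034 over all genes. Canx stood at 984, 925 and 923 CPM (log2 fold change -0.55, SE 0.04, adjusted p = 8.6e-15), overlapping wild type (1079, 963 and 986), and Calr at 1225, 1251 and 1216 CPM (log2 fold change -0.43, SE 0.04, adjusted p = 3.1e-13), below all wild type libraries (1674, 1692 and 1576). Hspa5 stood at 1123, 1065 and 1078 CPM against 1364, 1282 and 1255 in wild type (log2 fold change -0.26, SE 0.04, adjusted p = 2.5e-07). Its log2 difference from the knockout was -0.10 (SE 0.04, adjusted p = 0.02) and turned to 0.10 with library totals alone. That call was also lost without knockout replicate 3 (log2 fold change -0.088) or without double knockout replicate 2 (-0.087) or 3 (-0.095). Creld2 was the one chaperone gene called higher than in the knockout (log2 fold change 0.29). Against wild type, where 53.3% of all genes were called (26.2% higher, 27.1% lower), 3 chaperone genes were higher and 7 lower, and 8 of 24 ATF4 arm genes were higher and 9 lower (11 and 7 with library totals alone).

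**Figure D4:**
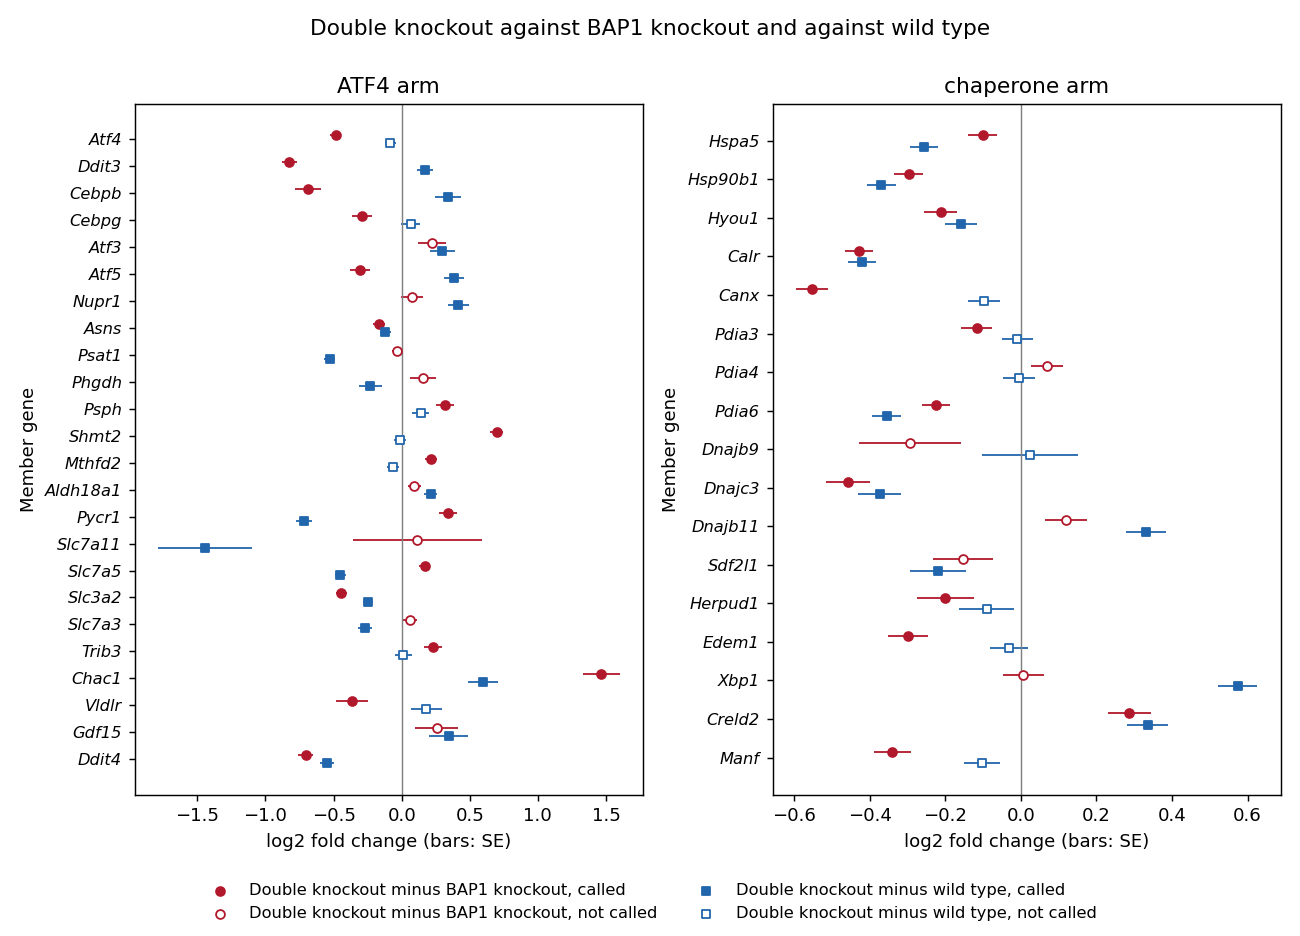
Log2 fold change with its SE of each member in the double knockout against the BAP1 knockout (red circles) and against wild type (blue squares), filled where the adjusted p was under 0.05. Chac1 lies to the right in both comparisons, Ddit4 and Calr to the left in both, and Ddit3 and Atf4 are far below the knockout and near wild type.

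The lines differed in these genes before any recombination. Against wild type 12 of 24 ATF4 arm genes were lower and 2 higher in the untreated knockout line (39.3% of all genes called, 18.5% higher and 20.8% lower), and 14 were lower and none higher in the untreated C91A line (27.6% of all genes called, 13.4% higher and 14.2% lower). The 14 became 9 when all libraries were thinned to equal depth. Both comparisons use the same wild type libraries. Pycr1 stood at 87.3, 102 and 98.6 CPM in wild type, 72.7, 71.9 and 71.1 in the untreated knockout line (log2 fold change -0.42) and 57.03, 53.8 and 56.8 in the untreated C91A line (-0.79). Slc7a5, the leucine transporter, stood at 668, 692 and 707 CPM in wild type, at 486, 475 and 485 in the untreated knockout line (log2 fold change -0.52) and at 536, 578 and 556 in the untreated C91A line (-0.31). For both genes the lines lay below wild type without overlap. Psat1 was lower in both lines (log2 fold change -0.32 and -0.31), as were Vldlr (-0.42 and -0.42, the latter not called at equal depth) and Asns (-0.25 and -0.25). The rises of Vldlr and Asns with each allele thus started below wild type. Slc7a11, at few counts, was lower in the untreated knockout line (log2 fold change -1.73, SE 0.34, adjusted p = 7.9e-05).

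Of the chaperone arm, Xbp1 differed most between the untreated knockout line and wild type. It stood at 56.7, 51.9 and 52.3 CPM in wild type and 80.97, 83.8 and 81.5 in the untreated knockout line (log2 fold change 0.62, SE 0.05, adjusted p = 5e-13). The untreated C91A line stood at 71.7, 71.2 and 69.9 (log2 fold change 0.41, SE 0.05, adjusted p = 1.1e-07), and the double knockout at 81.9, 75.8 and 81.1 (log2 fold change 0.57, SE 0.05, adjusted p = 2.4e-12). All 15 libraries that are not wild type lay above the 3 that are. Of the 17 chaperone genes 4 were higher and 3 lower in the untreated knockout line, beside 39.3% of all genes called. The split was 7 and 2 with library totals alone, and 5 and 2 with RLE factors, another scaling of edgeR. In the untreated C91A line 1 was higher and 9 lower, beside 27.6% of all genes called. Herpud1 (log2 fold change -0.45), Hspa5 (-0.41), Calr (-0.40) and Hsp90b1 (-0.37) were lowest there against wild type.

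The same pathways were read further in 8 lists of genes that are not members. Their counts rest on the TMM scale alone, since the alternatives were run only for members and all genes. Library totals alone moved the median of all genes by -0.154 after knockout, -0.102 in the C91A mutant and 0.204 in the double knockout against the knockout. How the splits of the lists change with that scaling was not tested. Of all genes, 61.6% were called after knockout (31.3% higher, 30.3% lower) and 55.0% in the C91A mutant (28.6% higher, 26.4% lower). Of 25 further ATF4 targets and genes of amino acid handling, 15 fell and 4 rose after knockout, with a median log2 fold change of -0.27. Called values ran from Sqstm1 (p62, a receptor of selective autophagy, log2 fold change 0.79, SE 0.04) to the hormone Fgf21 (-1.67, SE 0.50). In the C91A mutant 12 fell and 8 rose, from Sqstm1 (log2 fold change 0.92) to the transaminase Gpt2 (-0.69). Of 20 cytosolic aminoacyl-tRNA synthetases 9 rose and 2 fell after knockout, led by Sars (log2 fold change 0.59) with Vars lowest (-0.17), and 5 rose and 5 fell in the C91A mutant, between Sars (0.37) and Farsb (-0.21). The 16 genes of eIF2 alpha kinases and their control gave 4 rises and 6 falls after knockout, from Impact, an inhibitor of GCN2 activation (log2 fold change 0.81), to the haem-regulated kinase Eif2ak1 (-0.57). In the C91A mutant they gave 1 rise, of Impact (log2 fold change 0.81), and 6 falls, with Eif2ak4, the amino acid sensor GCN2, lowest (-0.39). Called shares after knockout were 76.0% of the further ATF4 targets, 55.0% of the synthetases and 62.5% of the eIF2 alpha group.

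On the ER side, 12 of 23 further folding enzymes rose and 7 fell after knockout, from Sdf2 (log2 fold change 0.59) to Fkbp14 (-1.81, SE 0.30). In the C91A mutant 14 of them rose and 4 fell, from Erp29 (log2 fold change 0.53) to Fkbp14 (-2.35, SE 0.31). Of 17 genes of ER-associated degradation 7 rose and 4 fell after knockout and 10 rose and 1 fell in the C91A mutant, with Derl1, a channel component, highest in both (log2 fold change 0.54 and 0.57). Edem3 was lowest after knockout (log2 fold change -0.30) and Derl3 in the C91A mutant (-0.24). Of 10 matched stress sensors and their proteases 3 rose and 4 fell after knockout, between Creb3 (log2 fold change 0.68) and Creb3l2 (-0.35), and 3 rose and 1 fell in the C91A mutant, between Creb3 (1.0) and Atf6b (-0.36). For comparison outside the ER, 4 of 13 cytosolic heat shock genes rose and 2 fell after knockout (Hspa4l 0.88, Hspb1 -0.81), and 6 rose and 3 fell in the C91A mutant (Hspa1a 0.71, Hsph1 -0.62). Of 10 NRF2 targets, the oxidative stress genes, 4 rose and 6 fell after knockout (Hmox1 0.62, Osgin1 -1.62 with SE 0.57). In the C91A mutant 4 of these targets rose and 4 fell (Nfe2l2 0.39, Nqo1 -0.36). In the double knockout against the knockout 12 of the 25 further ATF4 targets were higher and 5 lower, and 2 of the 20 synthetases were higher and 10 lower. Of the ER folding enzymes 5 were higher and 10 lower there, of the degradation genes 5 and 7, and of the eIF2 alpha group 5 and 4. Of all genes 63.2% were called in that comparison (32.6% higher, 30.6% lower). Each list is described by its counts alone, to be read beside these shares of all genes and those given above.

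**Figure D5:**
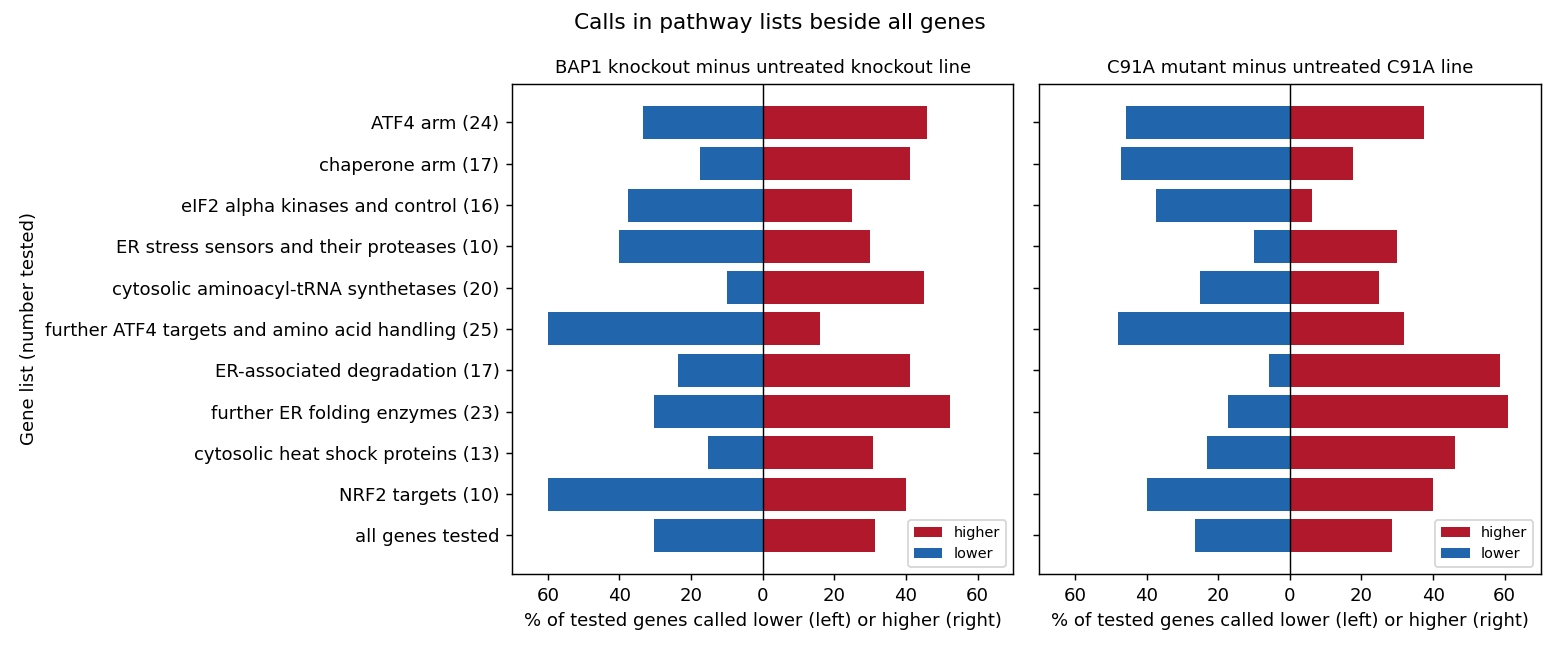
Share of tested genes called higher (red, to the right) or lower (blue, to the left) in both arms, 8 further lists and all genes, after BAP1 knockout (left panel) and in the C91A mutant (right panel), each against its untreated line. The bars of further ATF4 targets lean to falls after knockout, and those of ER folding and ER-associated degradation to rises in the C91A mutant.

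Genes with the C/EBP-ATF letters in their promoter window did not share a direction. After knockout 4 of the 8 rose (Asns, Atf3, Nupr1 and Vldlr) and 2 fell (Chac1 and Pycr1), with a median of 0.23, while of the 14 ATF4 arm genes with a window but no match 7 rose and 4 fell, with a median of 0.21. In the C91A mutant 4 of the 8 rose and 3 fell, against 5 and 6 of the 14. Of the 7 chaperone genes with the ER stress element 3 rose (Calr, Canx and Dnajc3) and 1 fell (Creld2) after knockout. With library totals alone the calls of Calr and Dnajc3 were lost, and Hspa5, Hsp90b1 and Pdia6 were called lower. In the C91A mutant 1 rose and 5 fell. Compared with the BAP1 knockout, 6 of these 7 were lower in the double knockout and 1 was higher. With library totals alone, though, Hspa5 was called higher (log2 fold change 0.10) and Pdia6 was not called (-0.021). Of all genes, 61.6% were called after knockout (31.3% higher, 30.3% lower) and 55.0% in the C91A mutant (28.6% higher, 26.4% lower). Between the double knockout and the knockout 63.2% of all genes were called (32.6% higher, 30.6% lower).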

How the data were processed

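Polyadenylated RNA was measured in 18 libraries, 3 in each of 6 groups. The labels number no replicates, so the numbers used here were given in order of deposition and only name libraries. The deposited counts are whole numbers per Entrez gene. The deposited nRPKM values are RPKM that the authors adjusted by a size factor per library, and within a library they were found to be proportional to the counts for each gene. Reads were aligned with GSNAP to GRCm38, per the submitters' processing notes. The counter and its strand setting are not given in the sources used here.

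Counts were tested in R 4.3.3 with edgeR 4.0.16 (TMM factors, filterByExpr, 1 mean per group over all 18 libraries, quasi-likelihood test, 2-sided, Benjamini-Hochberg adjustment over 16875 genes, adjusted p under 0.05) in 7 comparisons. The script was tested on simulated data. Gene names came from RefSeq GRCm38.p6 by Entrez identifier, and from GENCODE for 78 of them. Of 36528 genes 5401 stayed unnamed, and 1 gene of the further lists was not matched. Alternatives were DESeq2 1.42.0, RLE factors, library totals, the authors' size factors, no filter, fewer groups, equal depth and leaving out each library.

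The members, roles and lists were chosen with earlier results of these data known. Values per library are given for Atf4, Ddit3, Asns, Hspa5, Xbp1 and members called with at least a 1.5-fold change in the knockout, C91A or double knockout minus knockout comparison. Canx, Calr, Creld2, Nupr1, Sdf2l1 and Slc7a5 were added after their values were seen. Of each further list the called genes with the highest and lowest change are named. Depth was 8106613 to 23039407 counts per library, and the common dispersion corresponds to a coefficient of variation of 4.47% between replicates.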

Additional observations from a re-analysis of the deposited data

Results flagged for a closer look

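For 12 members the effect of BAP1 knockout differed from the effect of the C91A mutation in the test of the difference itself (interaction contrast in edgeR, adjusted p under 0.05 over all genes), in which 25.9% of all genes passed. The difference, knockout effect minus C91A effect on the log2 scale, was positive for Nupr1 (0.84), Ddit3 (0.57), Herpud1 (0.42), Atf4 (0.41), Calr (0.37), Atf5 (0.36), Cebpg (0.33), Slc3a2 (0.28), Canx (0.235) and Aldh18a1 (0.18). It was negative for Trib3 (-0.33) and Shmt2 (-0.28). The call of Aldh18a1 was lost with library totals, with no filter, at equal depth and without any of 7 single libraries, and that of Cebpg without C91A mutant replicate 2 (0.26). Nupr1 and Calr were called in opposite directions with the alleles. The Calr call after knockout was lost with library totals alone, and its knockout libraries lay within the range of wild type. With 3 libraries per group, no library was tested as lying apart from its group.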

How the results depend on the processing

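Of 287 member results (41 members in 7 comparisons), 172 were called. Of these 39 lost the call under at least 1 alternative, 40 of the others gained one, and 8 changed sign with a call under one of the settings, all with library totals alone (sign changes between values that were both uncalled are not counted). That scaling moved the median of all genes by -0.154 (knockout), -0.102 (C91A) and 0.204 (double knockout minus knockout). The reversed log2 values were, after knockout, -0.15 for Aldh18a1, -0.0024 for Dnajc3 and -0.020 for Manf, and, in the double knockout minus the knockout, 0.038 for Asns, 0.17 for Psat1, 0.10 for Hspa5, 0.087 for Pdia3 and 0.0038 for Herpud1. The chaperone genes that passed the test of the allele difference numbered 5, not 3, with the authors' size factors and with only the groups compared. The ATF4 arm genes called in the untreated C91A line against wild type numbered 9, not 14, at equal depth. The cause was not tested. The knockout split of the chaperone arm, 7 higher and 3 lower, was 5 and 4 with no filter and 7 and 5 with only the groups compared. Its split of the allele difference was 3 and 1 with library totals.

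Leaving out 1 library at a time gave 17 to 18 called ATF4 arm genes after knockout, 20 to 21 in the C91A mutant, 7 to 9 for the difference and 15 to 16 for the double knockout against the knockout. The chaperone counts were 8 to 10, 9 to 11, 3 to 4 and 9 to 13. The call of Gdf15 in the double knockout against wild type and that of Shmt2 in the untreated C91A line against wild type were lost under several alternatives. Atf4 in the C91A mutant was called without replicate 1 of the untreated C91A line (0.12). No paired analysis was possible because the labels give no replicate numbers (those used here only name the libraries). Depth limits Slc7a11 (6 to 64 counts per library) most.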
